A study of Saccharomyces cerevisiae with 12 samples.

Results

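The 5 aldehyde dehydrogenase genes ALD2 (YMR170C), ALD3 (YMR169C), ALD6 (YPL061W), ALD4 (YOR374W) and ALD5 (YER073W) of budding yeast were followed in poly(A) RNA sequencing of a hel2 deletion strain and its wild type, with and without methyl methanesulfonate (MMS). The members were chosen by name among 7109 gene identifiers in the deposited count table. The table names 2 of them itself, and all 5 were found through their RefSeq locus tags. All 5 passed the filter on low counts and were among the 6463 genes tested.

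Aldehyde dehydrogenases oxidise aldehydes to acids and pass the electrons to NAD or NADP. In fermenting yeast, pyruvate decarboxylase makes acetaldehyde, alcohol dehydrogenase reduces most of it to ethanol, and aldehyde dehydrogenases turn the rest into acetate, from which acetyl-CoA synthetase makes acetyl-CoA. ALD6 encodes the main cytosolic enzyme, which is present during growth on glucose and yields NADPH. ALD2 and ALD3 encode a pair of closely related cytosolic enzymes that use NAD, are known as stress-induced and glucose-repressed, and make beta-alanine for pantothenate and coenzyme A. ALD4 encodes the main mitochondrial enzyme, which is repressed by glucose, and ALD5 a minor mitochondrial one.

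The 12 libraries formed 4 groups of 3, whose members the labels call biological replicates. The groups were the MMS-treated hel2 deletion strain (hel2_MMS), the untreated hel2 deletion strain (hel2), the MMS-treated wild type (WT_MMS) and the untreated wild type (WT). All were of the BY4741 background, a haploid laboratory strain of mating type a with auxotrophic markers, and had grown in rich glucose medium to an optical density of about 0.5. MMS, which methylates DNA and RNA bases, was given for 90 min at 30 °C, and the labels give no dose. HEL2 encodes a ubiquitin ligase that marks collided ribosomes. The labels do not say whether the deletion strain is 1 clone, and p-values measure the spread between these libraries.

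HEL2 had 19 to 39 counts in the 6 deletion libraries and 928 to 2431 in the 6 wild type libraries. LEU2, an auxotrophic marker, had 19374 to 28105 counts in the deletion libraries and 2 to 28 in the wild type ones. The strains therefore differed at LEU2 as well, and a difference at LEU2 and the loss of HEL2 cannot be told apart in any comparison of strains. Of the a-cell genes, MFA1, MFA2 and STE2 had at least 14474 counts in every library, whereas the alpha-cell genes MF(ALPHA)1 and STE3 had 38 to 98 and 89 to 511. Libraries held 36472686 to 53638964 counts. WT_MMS_1 stood apart, with 201 of 4266 well-covered genes at least 1.5-fold below both other libraries of its group, against 2 to 6 genes in each of the other 11 libraries.

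Levels are CPM, counts relative to a library size scaled by the trimmed mean of M values (TMM), and CPM per kilobase of coding length where genes are compared with each other. They are relative to all counted transcripts of a culture, so fewer expressing cells and less RNA per cell cannot be told apart. The coding lengths of the members, 1503 to 1563 bases, are close to each other.

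ALD6, the main cytosolic gene, had 317, 281 and 337 CPM in hel2_MMS, 1276, 1304 and 1483 CPM in hel2, 758, 656 and 612 CPM in WT_MMS and 1009, 1082 and 877 CPM in WT. It was lowest in every hel2_MMS library, and no library of any group overlapped with those of the next group. ALD2 had 146, 139 and 148 CPM in hel2_MMS, 27.7, 28.8 and 31.5 CPM in hel2, 107, 76.1 and 89.1 CPM in WT_MMS and 26.2, 26.5 and 22.8 CPM in WT. Its treated libraries were all above its untreated ones, and those of the treated deletion strain were the highest.

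ALD3, the relative of ALD2, had 631, 465 and 573 CPM in hel2_MMS, 8.75, 10.2 and 9.92 CPM in hel2, 177, 84.4 and 123 CPM in WT_MMS and 8.79, 8.92 and 7.64 CPM in WT. Its untreated libraries lay close together in both strains and overlapped, while each treated deletion library held more than any treated wild type library. With 293 counts in its lowest library, ALD3 was well above the counting floor even there.

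ALD4, the main mitochondrial gene, had 1007, 923 and 961 CPM in hel2_MMS, 115, 112 and 140 CPM in hel2, 735, 385 and 472 CPM in WT_MMS and 69.5, 66.7 and 66.7 CPM in WT. No groups overlapped, and the highest wild type value with MMS came from WT_MMS_1, the library that stood apart. ALD5 had 492, 476 and 483 CPM in hel2_MMS, 247, 269 and 264 CPM in hel2, 382, 360 and 355 CPM in WT_MMS and 248, 200 and 490 CPM in WT. Its WT_3 library lay as high as the treated deletion libraries, and both wild type groups overlapped because of it.

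**Figure D1:**
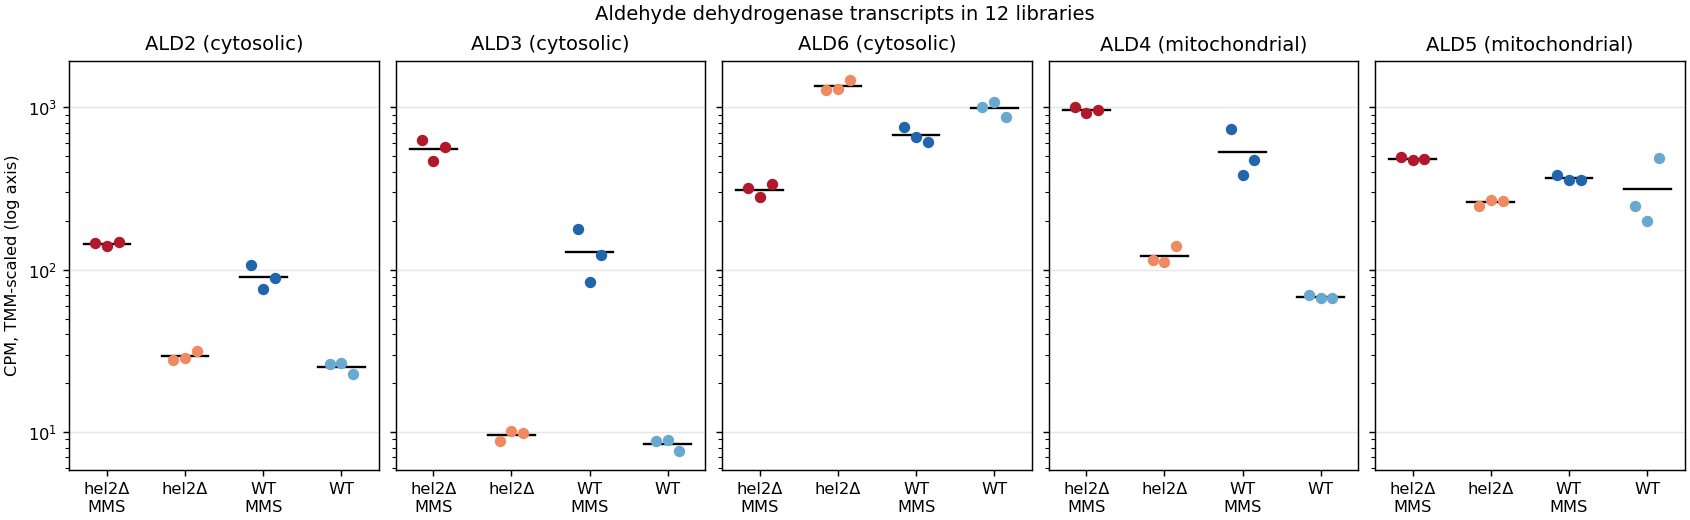
TMM-scaled CPM (log axis) of the 5 members in the 12 libraries, with 1 point per library and a line at the mean of each group of 3. ALD2, ALD3 and ALD4 were high in the treated libraries, ALD6 was lowest at 281 to 337 CPM in hel2_MMS, and ALD5 had 1 untreated wild type library at 490 CPM.

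Per kilobase, ALD6 was the most abundant member in both untreated groups, with 901 ± 74.8 CPM per kilobase in hel2 and 658 ± 69.2 in WT (SD, n = 3). ALD5 came second, then ALD4, ALD2 and ALD3, with no overlap between neighbours in this order. ALD3 was last in both, at 6.32 ± 0.496 CPM per kilobase in hel2 and 5.56 ± 0.465 in WT. Among 5884 genes ranked by level per kilobase it stood at place 5038 in hel2 and 5068 in WT.

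In hel2_MMS the order was another one. ALD4 led with 618 ± 26.9 CPM per kilobase, followed by ALD3 with 366 ± 55.3 and ALD5 with 310 ± 5.05, whose libraries overlapped. ALD6 came next with 208 ± 18.9 and ALD2 last with 95.0 ± 3.07 (SD, n = 3). In these libraries ALD6 was thus at place 4 of 5, and ALD3 stood at place 353 among the 5884 genes ranked. In WT_MMS the libraries of ALD6, at 449 ± 49.8 CPM per kilobase, overlapped with those of ALD4, at 340 ± 117. The same held for ALD3 at 84.3 ± 30.7 and ALD2 at 59.7 ± 10.2, and ALD5 lay between these pairs at 234 ± 8.97.

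The makeup of the family was computed within each library as shares of its summed counts per kilobase, which no scaling between libraries can change. The cytosolic genes ALD2, ALD3 and ALD6 made up 42.9, 39.5 and 43.0% in hel2_MMS, 79.0, 78.6 and 79.7% in hel2, 49.2, 53.2 and 50.8% in WT_MMS and 77.4, 81.3 and 62.9% in WT. Each treated library had a smaller cytosolic share than any untreated one, and each treated deletion library a smaller share than any treated wild type library. The cytosolic to mitochondrial ratio averaged 0.719 ± 0.0585 in hel2_MMS, 3.79 ± 0.128 in hel2, 1.05 ± 0.0855 in WT_MMS and 3.16 ± 1.35 in WT (SD, n = 3). The large SD of WT came from WT_3, whose ratio was 1.69 against 3.42 and 4.36, with ALD5 at 32.7% of the family in that library. Since the members were chosen, these sums were described and not tested.

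Within the cytosol, ALD6 made up 31.1 ± 1.65% of the cytosolic counts per kilobase in hel2_MMS, 97.2 ± 0.0916% in hel2, 76.0 ± 4.01% in WT_MMS and 96.7 ± 0.102% in WT. The rest was ALD2 and ALD3, which together held 26.8 to 30.4% of the whole family in hel2_MMS, 2.14 to 2.25% in hel2, 10.4 to 13.3% in WT_MMS and 2.08 to 2.56% in WT. Among the mitochondrial counts, ALD4 took 66.6 ± 0.607% in hel2_MMS, 32.0 ± 2.68% in hel2, 58.2 ± 7.13% in WT_MMS and 19.7 ± 6.83% in WT. In treated cells of both strains the family thus held larger shares of ALD2 with ALD3 and of ALD4. Summed over the family, levels were 2460 ± 158 CPM in hel2_MMS, 1775 ± 135 in hel2, 1790 ± 322 in WT_MMS and 1403 ± 53.6 in WT. These sums, unlike the shares, depend on the scaling between libraries. As a share of all counts of a library, the family made up 0.301 to 0.335% in hel2_MMS and 0.150 to 0.164% in hel2. It made up 0.173 to 0.192% in WT_MMS and 0.111 to 0.125% in WT.

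**Figure D2:**
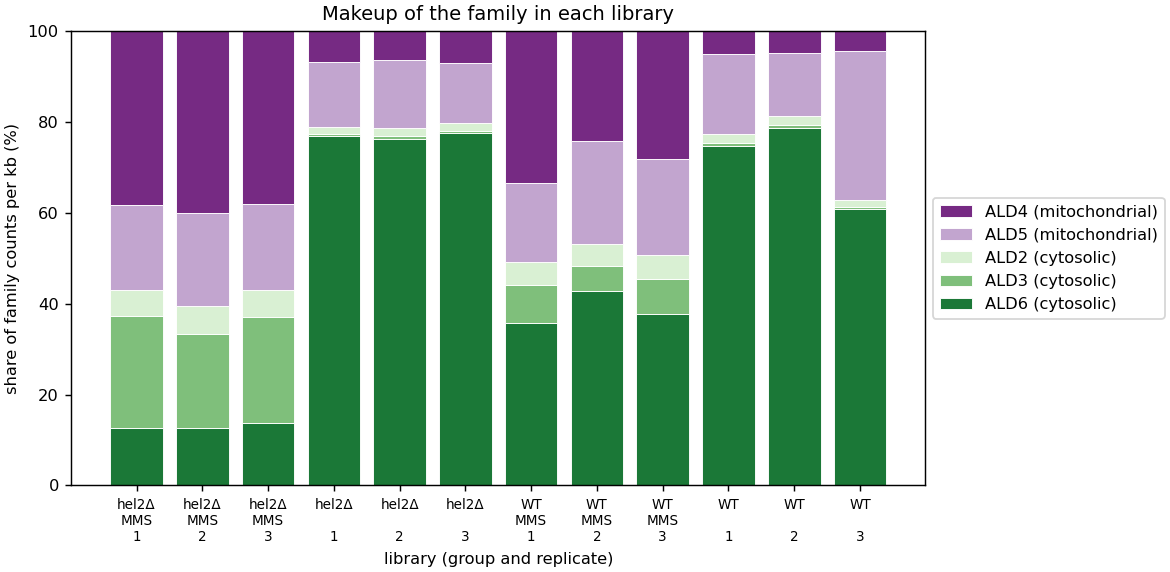
Share of each member in the summed counts per kilobase of the family (%, stacked to 100) in each of the 12 libraries, cytosolic members in green and mitochondrial members in purple. ALD6 held 12.5 to 13.8% of the family in hel2_MMS, 76.3 to 77.6% in hel2, 35.9 to 42.8% in WT_MMS and 60.8 to 78.8% in WT.

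Reads of the paralogs ALD2 and ALD3 could in part be assigned to either gene, since the treatment of reads with several alignments is not given in the sources used here. The ratio of ALD3 to ALD2 was 4.31, 3.34 and 3.87 in hel2_MMS, 0.315, 0.353 and 0.315 in hel2, 1.66, 1.11 and 1.38 in WT_MMS and 0.336 in each WT library. ALD3 was thus the lesser of the pair in all 6 untreated libraries and the greater in all 6 treated ones. The number of shared reads was not measured.

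**Figure D3:**
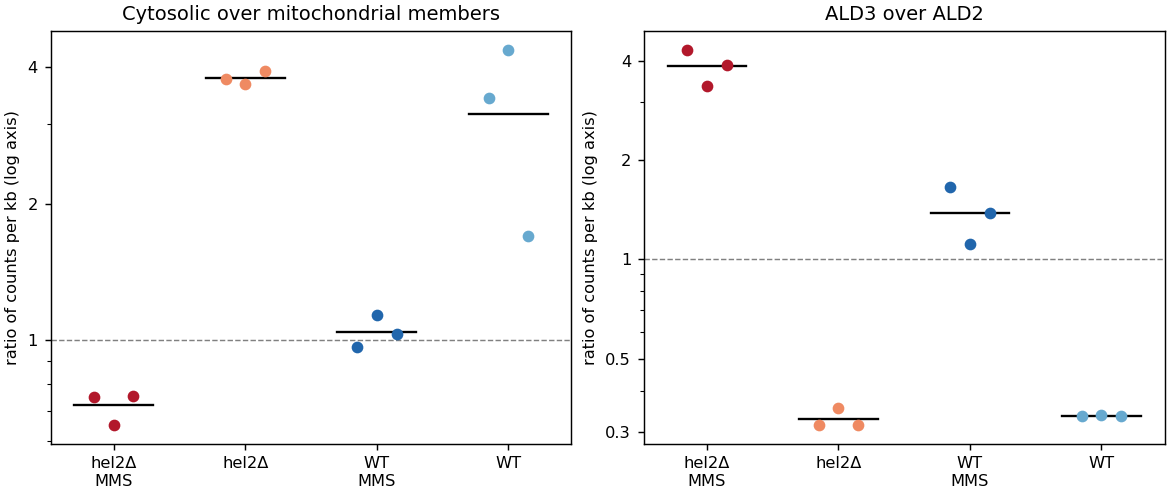
Ratios of counts per kilobase (log axes) in each library, with a line at the mean of each group of 3 and a dashed line at 1. On the left, cytosolic over mitochondrial members, at 0.652 to 0.755 in hel2_MMS and 3.67 to 3.92 in hel2. On the right, ALD3 over ALD2, below 1 in the 6 untreated libraries and above 1 in the 6 treated ones.

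The first comparison asked what MMS did to the family in the deletion strain. ALD3, ALD4, ALD2 and ALD5 rose and ALD6 fell, so every member changed. The background was wide, since 39.2% of the 6463 genes tested rose and 36.2% fell at an adjusted p under 0.05. The 4 rises among 5 members stand beside a background in which most genes changed. Over all 5 members the median log2 fold change was 2.30, against 0.06 over all genes tested.

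ALD3 stood at place 4 from the highest of 6463 genes, with a log2 fold change of 5.86 ± 0.26 (SE), or 57.9-fold, and an adjusted p of 6.77e-10 by the quasi-likelihood test of edgeR. ALD2 rose by 2.30 ± 0.11, or 4.93-fold (adjusted p = 7.33e-10). Summed as 1 feature, which does not depend on how counted reads were divided between them, the paralogs rose by 4.17 (adjusted p = 2.74e-10). The sum can still depend on whether shared reads were dropped or counted in both genes. ALD6 fell by 2.12 on the log2 scale, with an SE of 0.12 (adjusted p = 2.04e-09), and was 4.34-fold lower with MMS. Of the mitochondrial genes, ALD4 rose by 2.98 ± 0.19, or 7.89-fold (adjusted p = 1.09e-08), and ALD5 by 0.90 ± 0.25, or 1.86-fold (adjusted p = 0.00558).

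In the wild type, MMS moved the same members in the same directions, except that the change of ALD5 did not pass. ALD3, ALD4 and ALD2 rose and ALD6 fell. Over all genes tested, 35.6% rose and 34.2% fell, with a median of 0.02 against a median of 1.85 over the members. ALD3 rose by 3.92 ± 0.24, or 15.2-fold (adjusted p = 2.18e-08), which put it at place 43 from the highest of 6463 genes. ALD2 rose by 1.85 ± 0.11, or 3.61-fold (adjusted p = 9.97e-09). The 2 paralogs summed rose by 2.70 (adjusted p = 1.75e-08).

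ALD4 rose in the wild type by 2.97 ± 0.19, or 7.84-fold (adjusted p = 1.78e-08). Without WT_MMS_1 the rise was 2.66, and those of ALD3 and ALD2 were 3.61 and 1.71. ALD6 fell by 0.55 on the log2 scale, with an SE of 0.11 (adjusted p = 0.000679), and was 1.47-fold lower with MMS. Under library-size scaling, which puts the median of all genes at 0.33 in this comparison, the change of ALD6 was -0.25 (adjusted p = 0.0207). All these calls held when any 1 library was left out.

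ALD5 differed by 0.23 ± 0.24 between treated and untreated wild type cells (95% interval -0.31 to 0.76, adjusted p = 0.426). Without WT_3 it was 0.71 (adjusted p = 5.34e-05), and without WT_2 it was -0.015. WT_3 was also high in HFD1, an aldehyde dehydrogenase gene for fatty aldehydes, with 142 CPM against 43.9 in WT_1 and 44.2 in WT_2. Of the 2 alpha-cell genes, STE3 was highest in WT_3, at 13.3 CPM against 3.69 and 3.89, but MF(ALPHA)1 was not, at 1.36 against 1.65 and 2.31. How these differences bear on ALD5 was not tested.

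**Figure D4:**
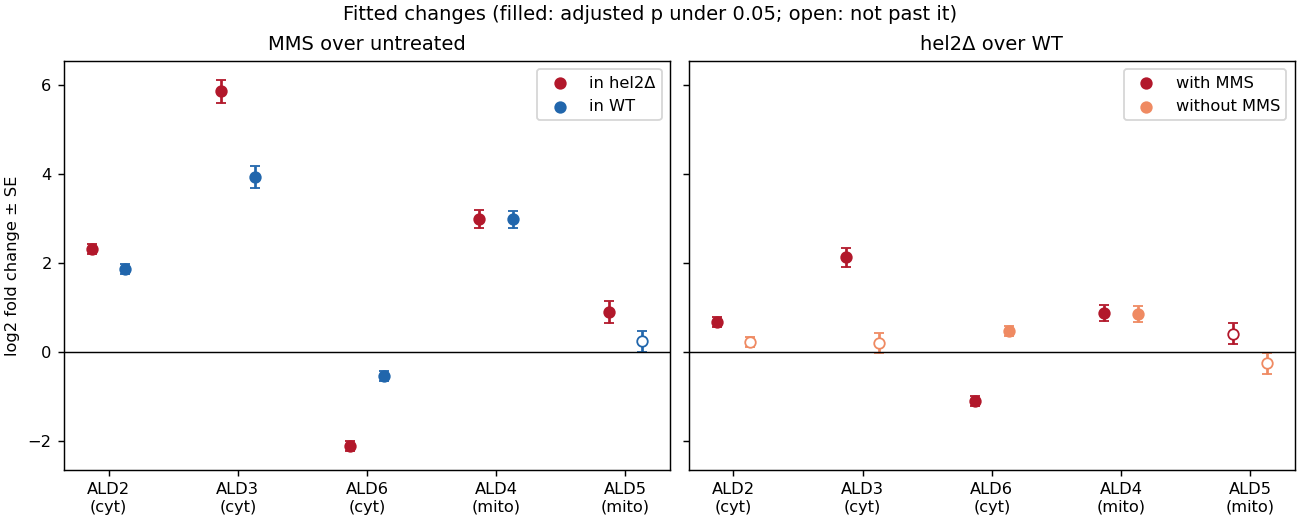
Fitted log2 fold changes of the 5 members with SE bars, filled where the adjusted p was under 0.05 and open where it was not. On the left, MMS over untreated, with ALD3 at 5.86 in the deletion strain and 3.92 in the wild type. On the right, deletion strain over wild type, with ALD6 at -1.11 with MMS and 0.45 without.

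Without MMS, the deletion strain differed from the wild type in ALD4 and ALD6, both of which were higher, while ALD2, ALD3 and ALD5 did not pass. In this comparison 5.25% of the genes tested were higher and 3.33% lower, and the median was 0.22 over the members against 0.01 over all genes. These shares depended on single libraries. They were 9.32% and 8.57% without WT_MMS_1, 3.21% and 1.69% without WT_3, and 4.02% and 1.15% without hel2_1, and the higher share was also over 1.5-fold smaller without WT_1 or WT_2, and the lower share without hel2_2, hel2_3, WT_1 or WT_2. DESeq2 gave 6.5% and 6.48%. ALD4 averaged 122 ± 15.6 CPM in hel2 and 67.6 ± 1.60 in WT (SD, n = 3), a log2 difference of 0.85 ± 0.18 (SE, adjusted p = 0.0119). ALD6 averaged 1354 ± 112 CPM in hel2 and 989 ± 104 in WT, a log2 difference of 0.45 ± 0.11 (adjusted p = 0.0249).

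Both calls were near the threshold. That of ALD4 was lost without hel2_3 (adjusted p = 0.0508) or WT_2 (adjusted p = 0.0526). That of ALD6 was lost without hel2_2 (adjusted p = 0.0566), hel2_3 (adjusted p = 0.0938), WT_1 (adjusted p = 0.0732) or WT_3 (adjusted p = 0.107), and with a replicate block (adjusted p = 0.0569). The difference was 0.22 ± 0.11 for ALD2 (95% interval -0.02 to 0.46), 0.19 ± 0.23 for ALD3 (-0.31 to 0.68) and -0.27 ± 0.24 for ALD5 (-0.80 to 0.27). The value of ALD5 was 0.22 without WT_3.

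With MMS, ALD3, ALD4 and ALD2 were higher in the deletion strain and ALD6 was lower. In this comparison 32% of all genes tested were higher and 29.8% lower, and the median was 0.67 over the members against 0.03 over all genes. ALD3 averaged 556 ± 84.1 CPM in hel2_MMS and 128 ± 46.7 in WT_MMS (SD, n = 3), a log2 difference of 2.12 ± 0.22 (SE, adjusted p = 5.06e-06). ALD2 averaged 145 ± 4.67 CPM in hel2_MMS and 90.8 ± 15.6 in WT_MMS, with a difference of 0.67 ± 0.11 (adjusted p = 0.000154). Of the pair, ALD3 had the larger difference.

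ALD6 averaged 312 ± 28.3 CPM in hel2_MMS and 675 ± 74.9 in WT_MMS, a log2 difference of -1.11 ± 0.11 (adjusted p = 3e-06). ALD4 averaged 964 ± 42.0 CPM in hel2_MMS and 530 ± 182 in WT_MMS, a difference of 0.86 ± 0.18 (adjusted p = 0.00111). Leaving out WT_MMS_1, where ALD4 and ALD3 were highest among the treated wild type libraries, gave differences of 1.17 for ALD4, 2.42 for ALD3, 0.80 for ALD2 and -1.03 for ALD6. ALD5 averaged 484 ± 7.89 CPM in hel2_MMS and 366 ± 14.0 in WT_MMS without overlap of the libraries, but its difference of 0.41 ± 0.24 did not pass (95% interval -0.13 to 0.94, adjusted p = 0.17). The fit shares 1 spread per gene over all groups, and without WT_3 the same difference of ALD5 had an adjusted p of 0.00166.

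The difference of the MMS effects, the effect in the deletion strain minus that in the wild type, was tested as a term of the same model. ALD3 and ALD2 rose more in the deletion strain and ALD6 fell more. Over all genes tested, 18.6% had a higher and 21.5% a lower MMS effect in the deletion strain. The median difference was 0.45 over the members and -0.01 over all genes.

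For ALD3 the difference was 1.93 ± 0.31 (SE, adjusted p = 0.00054), so its rise was 3.81-fold larger in the deletion strain. For ALD6 it was -1.57 ± 0.16 (adjusted p = 1.46e-05), at place 119 from the lowest of 6463 genes. For ALD2 it was 0.45 ± 0.16 (adjusted p = 0.035), and this call was lost in 8 of 12 fits that left out 1 library and under median-ratio scaling (adjusted p = 0.0636). The paralogs summed differed by 1.47 (adjusted p = 0.000425).

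For the mitochondrial genes no difference passed. That of ALD4 was 0.01 ± 0.26 with a 95% interval from -0.54 to 0.56 (adjusted p = 0.981), and it was 0.33 without WT_MMS_1 (adjusted p = 0.0576). The offset of ALD4 between strains was of like size with and without MMS, 0.86 and 0.85. That of ALD5 was 0.67 ± 0.34 with an interval from -0.09 to 1.43 (adjusted p = 0.145), and it passed without WT_2, at 0.91 (adjusted p = 0.0225).

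Genes whose products act beside the family were counted in 6 lists. With MMS, 39.2% of all genes tested rose and 36.2% fell in the deletion strain. The wild type shares were 35.6% and 34.2%, and each count of a list stands beside these shares. The other aldehyde dehydrogenase genes are HFD1, UGA2 for succinate semialdehyde in the breakdown of GABA, PUT2 for proline breakdown, and MSC7. In the deletion strain 3 of these 4 rose with MMS and MSC7 fell, and the counts in the wild type were the same. UGA2 rose by 2.81 ± 0.12 in the deletion strain (adjusted p = 1.54e-10) and by 2.54 ± 0.12 in the wild type (adjusted p = 8.66e-10). HFD1 rose by 1.96 ± 0.40 in the deletion strain (adjusted p = 0.00152) and by 1.00 ± 0.40 in the wild type (adjusted p = 0.0458). The wild type value of HFD1 was 1.80 without WT_3 (adjusted p = 9.13e-09), and its call was lost in 13 of 20 alternatives and with the wild type libraries paired by number (adjusted p = 0.206). MSC7 fell by 1.11 on the log2 scale in the deletion strain (adjusted p = 2.92e-07) and by 0.36 in the wild type (adjusted p = 0.00575; -0.06 under library-size scaling, where it did not pass), a difference of MMS effects of -0.75 ± 0.14 (adjusted p = 0.00111).

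Upstream and downstream of acetaldehyde, 5 genes were followed. Of all genes tested, 36.2% fell and 39.2% rose in the deletion strain, and 34.2% fell and 35.6% rose in the wild type. In the deletion strain 3 of the 5 fell with MMS and 1 rose, and in the wild type 2 fell and 2 rose. Under library-size scaling the deletion strain also had 2 that fell and 2 that rose, with PDC5 at 0.01 in place of -0.56 and PDC6 at 0.66 in place of 0.10. PDC1, the main pyruvate decarboxylase gene, averaged 4164 ± 277 CPM in hel2_MMS, 22969.8 ± 2332 in hel2, 14739 ± 2345 in WT_MMS and 26258 ± 1842 in WT (SD, n = 3). It fell by 2.46 on the log2 scale in the deletion strain (adjusted p = 1.1e-09) and by 0.83 in the wild type (adjusted p = 4.24e-05), and the difference of -1.63 ± 0.17 passed (adjusted p = 1.96e-05). ACS2, the acetyl-CoA synthetase gene used on glucose, fell by 1.81 in the deletion strain and by 1.28 in the wild type. ACS1, its glucose-repressed counterpart, rose by 0.77 ± 0.19 in the deletion strain and by 1.19 ± 0.19 in the wild type. PDC1 and ACS2 (-0.53 ± 0.13, adjusted p = 0.00746) thus fell more in the deletion strain, as did ALD6, and for ACS1 no difference between the strains passed (-0.43 ± 0.27, adjusted p = 0.233).

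Among 8 alcohol dehydrogenase genes, 2 rose and 5 fell with MMS in the deletion strain, whereas 6 rose and 1 fell in the wild type. All genes tested had shares of 39.2% and 36.2% in the deletion strain and 35.6% and 34.2% in the wild type. Under library-size scaling 2 of the 8 rose and 3 fell in the deletion strain, and 6 rose in the wild type. For 5 of them the MMS effect was lower in the deletion strain by the test of the difference, and for ADH5 it was higher. The shares over all genes tested were 21.5% lower and 18.6% higher. ADH1, the main gene for ethanol formation, averaged 5789.5 ± 369.7 CPM in hel2_MMS, 16979 ± 1801 in hel2, 22214 ± 5259 in WT_MMS and 17050.3 ± 1415 in WT. It fell by 1.55 on the log2 scale in the deletion strain (adjusted p = 5.92e-07) and rose by 0.38 ± 0.15 in the wild type (adjusted p = 0.0333), a call lost under 5 alternatives, without WT_MMS_1 among them. The difference of the effects on ADH1 was -1.93 ± 0.21 (adjusted p = 2.23e-05). ADH2, the gene for ethanol oxidation, averaged 41.7 CPM in hel2_MMS, 95.0 in hel2, 118 in WT_MMS and 92.6 in WT, far below ADH1. How many of its counts were reads of ADH1 was not measured. ADH2 fell by 1.19 in the deletion strain and rose by 0.35 in the wild type. ADH5 rose in both, by 2.40 ± 0.13 in the deletion strain and 1.76 ± 0.13 in the wild type. ADH7 rose by 0.85 ± 0.29 in the deletion strain, a call lost without hel2_MMS_2, without hel2_MMS_3 and with only the libraries compared, and by 1.16 ± 0.29 in the wild type. SFA1, for the formaldehyde dehydrogenase that depends on glutathione, had 348, 2282 and 326 CPM in WT_MMS. Its wild type rise of 2.37 ± 0.69 (adjusted p = 0.0126) was 0.82 without WT_MMS_2 (adjusted p = 1.22e-06) and 1.68 with the wild type libraries paired (adjusted p = 0.259). In the deletion strain SFA1 changed by 0.75 ± 0.66 without passing (adjusted p = 0.323). Without WT_MMS_2 that change was also 0.75 and passed (adjusted p = 7.57e-07), and the difference of the MMS effects was -0.07 (adjusted p = 0.623). WT_MMS_2 was also the only 1 of 12 libraries with more than 12 counts of the marker URA3, at 378.

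Of 9 genes of beta-alanine, pantothenate and coenzyme A synthesis, the pathway that ALD2 and ALD3 feed, 6 rose and 1 fell with MMS in the deletion strain, and 3 rose and 1 fell in the wild type. Beside this, 39.2% of all genes tested rose and 36.2% fell in the deletion strain, and 35.6% and 34.2% in the wild type. Under library-size scaling 9 of the list rose in the deletion strain and 4 in the wild type. Of the genes called under TMM scaling, PAN6 in the deletion strain and CAB1 in the wild type turned sign. PAN5 and CAB2 in both strains and CAB5 in the wild type, which were not called under TMM scaling, turned as well. FMS1, the polyamine oxidase whose product is the substrate of ALD2 and ALD3, rose by 0.84 ± 0.07 in the deletion strain (adjusted p = 1.53e-07) and by 1.11 ± 0.07 in the wild type (adjusted p = 1.48e-08). ECM31, for the first step from valine synthesis to pantothenate, rose by 0.58 ± 0.11 in the deletion strain and by 0.40 ± 0.11 in the wild type, and CAB4 rose by 0.29 ± 0.07 in the deletion strain and by 0.37 ± 0.07 in the wild type. CAB5, for the last step of coenzyme A synthesis, rose by 0.90 ± 0.19 in the deletion strain and changed by -0.27 ± 0.19 in the wild type without passing (adjusted p = 0.222), and the difference of 1.17 ± 0.27 passed (adjusted p = 0.00434). All these changes were smaller than those of ALD3 in the same strain.

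ALD6 is 1 of several sources of NADPH. Of 8 genes for other sources, 6 rose and 2 fell in either strain. Over all genes tested, 39.2% rose and 36.2% fell in the deletion strain, and 35.6% and 34.2% in the wild type. GND2, the minor phosphogluconate dehydrogenase gene, rose by 3.71 ± 0.19 in the deletion strain (adjusted p = 1.24e-09) and by 2.96 ± 0.19 in the wild type (adjusted p = 1.63e-08). GND1, its major counterpart, fell by 2.35 in the deletion strain and by 0.76 in the wild type, a difference of -1.59 ± 0.16 (adjusted p = 1.4e-05). ZWF1, for the first enzyme of the pentose phosphate pathway, rose by 1.21 ± 0.13 in the deletion strain (adjusted p = 1.7e-06) and by 1.72 ± 0.13 in the wild type (adjusted p = 8.4e-08). MAE1, for the mitochondrial malic enzyme, fell by 1.15 in the deletion strain and by 1.45 in the wild type. IDP2, for cytosolic isocitrate dehydrogenase, rose by 1.87 ± 0.15 in the deletion strain and 0.60 ± 0.15 in the wild type. POS5, for the mitochondrial NADH kinase, rose by 1.53 ± 0.07 in the deletion strain and 0.42 ± 0.07 in the wild type.

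The 8 regulator genes included MSN2 and MSN4 for the general stress factors, and ADR1, CAT8, MIG1 and SNF1 of glucose repression. With MMS 7 rose in the deletion strain and 4 in the wild type, and the others did not pass. Under median-ratio scaling 5 rose in the deletion strain, and under library-size scaling 8 rose in the deletion strain and 6 in the wild type. The shares over all genes tested were 39.2% that rose and 36.2% that fell in the deletion strain, and 35.6% and 34.2% in the wild type. CAT8 rose by 1.31 ± 0.11 in the deletion strain and by 1.31 ± 0.11 in the wild type. MSN4 rose by 1.11 ± 0.09 in the deletion strain and by 1.45 ± 0.09 in the wild type. HOG1, for the osmotic stress kinase, rose by 0.26 ± 0.08 in the deletion strain, a call lost under median-ratio scaling, and by 0.80 ± 0.09 in the wild type, and the difference of -0.53 ± 0.12 passed (adjusted p = 0.00372). ADR1 rose by 0.40 ± 0.10 in the deletion strain and by 1.05 ± 0.11 in the wild type. Its difference was -0.65 ± 0.15 (adjusted p = 0.00413). MIG1 rose by 0.54 ± 0.13 in the deletion strain and changed by -0.06 ± 0.13 in the wild type without passing (adjusted p = 0.716). Its difference of 0.60 ± 0.19 passed (adjusted p = 0.0238), a call lost in 4 of 19 alternatives. Without MMS, where 5.25% of all genes tested were higher and 3.33% lower in the deletion strain, 0 of the 34 genes of the other 5 lists passed with edgeR, DESeq2 or limma-voom, and 7 had an unadjusted p under 0.05 with edgeR. Under library-size scaling 3 passed (ADH5, UGA2 and ZWF1), and without WT_MMS_1 these 3 passed with FMS1, PAN6 and PUT2, 6 in all. HFD1 passed without WT_3, and ADH5 and ZWF1 passed with only the libraries compared. Of the regulators, ADR1, by 0.58 ± 0.11 (adjusted p = 0.00512), and MSN2, by 0.28 ± 0.06 (adjusted p = 0.0167), were higher in the deletion strain, and the call of MSN2 was lost without hel2_1, without WT_2 and under library-size scaling.

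Between the treated strains, where 32% of all genes tested were higher in the deletion strain and 29.8% lower, 2 other aldehyde dehydrogenase genes were higher in the deletion strain and 1 lower, and of the acetaldehyde and acetate genes 3 were lower. Of the alcohol dehydrogenase genes 1 was higher and 6 were lower. SFA1 was among these 6 at -1.75 ± 0.67 (adjusted p = 0.0474) and lost its call in 15 of 20 alternatives. Without WT_MMS_2 its difference was -0.20 (adjusted p = 0.0393). In the coenzyme A list 3 were higher and 2 lower, among the NADPH sources 4 and 1, and among the regulators 3 and 1. Under library-size scaling these counts were 6 higher and 1 lower in the coenzyme A list, 7 and 1 among the NADPH sources, and 6 and 0 among the regulators. It gave 1 higher and 3 lower among the acetaldehyde and acetate genes, and 1 and 4 among the alcohol dehydrogenase genes. CAB4, for a late step of coenzyme A synthesis, was among the lower ones at -0.18 ± 0.07 (adjusted p = 0.0397), was at 0.16 under library-size scaling, and lost its call in 10 of 20 alternatives. The largest of these differences were ADH1 at -1.94 ± 0.15 (adjusted p = 3.02e-07), PDC1 at -1.82 ± 0.12 (adjusted p = 1.06e-07) and GND1 at -1.53 ± 0.12 (adjusted p = 2.3e-07), leaving aside SFA1 with its single high library.

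**Figure D5:**
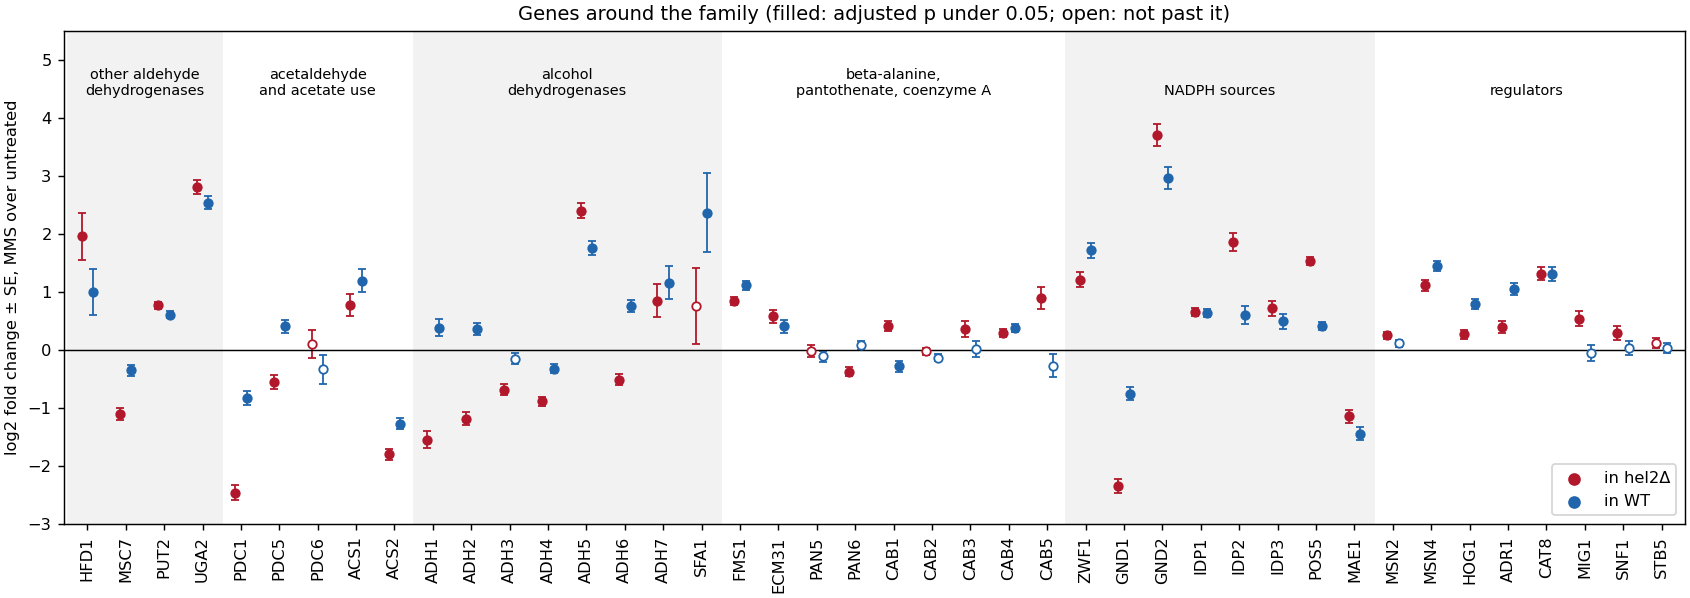
Log2 fold change with MMS and its SE for the 42 genes of the 6 lists, in the deletion strain (red) and the wild type (blue), filled where the adjusted p was under 0.05. ADH1, ADH2, ADH6 and PDC5 were below 0 in the deletion strain and above 0 in the wild type, and under library-size scaling the deletion values of ADH6 and PDC5 were 0.04 and 0.01.

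To see which transcripts had patterns most like each member, Pearson correlations of log2 CPM over the 12 libraries were computed with 3997 genes. These libraries share the treatment contrast, in which most genes changed, so genes can correlate highly through it alone. How common such values were was not computed, and the correlations are given as a description. Nearest to ALD2 were RTN2, a reticulon gene, at 0.999, GDB1, for glycogen debranching, at 0.998, and TPH3 at 0.998. Nearest to ALD3 were CRD1, for cardiolipin synthase, and NNR2, for repair of damaged NADH, both at 0.998, and SDH2, a subunit of succinate dehydrogenase, at 0.997.

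ALD4 was nearest to ATG42, a vacuolar carboxypeptidase gene, at 0.998, SSA1, a chaperone gene of the Hsp70 family, at 0.998, and HOR7 at 0.997. ALD6 was nearest to HSP10, the mitochondrial cochaperonin gene, at 0.977, LAC1, for ceramide synthase, at 0.976, and TOS2 at 0.975. HSP10 had 313 CPM in hel2_MMS, 606 in hel2, 437 in WT_MMS and 509 in WT on average. Within the family, ALD2 and ALD3 correlated at 0.995 and ALD2 and ALD4 at 0.991, and ALD6 with the others at -0.81 to -0.93.

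ALD5 had no pattern as close, with HFD1 at 0.946, ARO5 at 0.889 and CLD1, a cardiolipin phospholipase gene, at 0.879. All 3 were high in WT_3 as ALD5 was. CLD1 had 41.9 CPM in that library against 8.55 in WT_1 and 8.80 in WT_2, and ARO5 66.4 CPM against 23.1 and 6.58.

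The chromosomal neighbours of the members were looked up in RefSeq, and no member overlaps its neighbour there. ALD2 and ALD3 lie next to each other on the same strand. Beyond them lie CEP3, for a kinetochore protein, which passed in none of the 5 comparisons (lowest adjusted p = 0.312), and EAR1, which fell in the wild type with MMS by 0.17 on the log2 scale (adjusted p = 0.0187) and passed in no other comparison. Neither outer gene rose with MMS under TMM scaling. Under library-size scaling CEP3 rose by 0.64 in the deletion strain and 0.39 in the wild type, and EAR1 by 0.54 in the deletion strain, close to the shift of the median of all genes, while EAR1 in the wild type was at 0.15 and did not pass.

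Next to ALD4, GDH1, for a glutamate dehydrogenase that uses NADPH, fell with MMS by 1.81 in the deletion strain and by 1.38 in the wild type. NUD1, for a spindle pole protein, fell by 1.07 in the deletion strain and by 0.28 in the wild type, at 0.03 there under library-size scaling. Next to ALD5, RPS24A, a ribosomal protein gene, fell by 3.19 in the deletion strain and by 2.43 in the wild type. VTC1 on its other side fell by 0.42 in the deletion strain, at 0.14 under library-size scaling, and changed by -0.09 in the wild type without passing (adjusted p = 0.5), whereas under library-size scaling it rose there by 0.20 (adjusted p = 0.0347). Next to ALD6, MFM1, for a mitochondrial magnesium transporter, rose by 1.52 ± 0.14 in the deletion strain and by 0.87 ± 0.14 in the wild type, against the fall of ALD6. YPL062W on the other side fell by 0.81 in the deletion strain (adjusted p = 0.0234; 0.391 under library-size scaling) and changed by -0.55 ± 0.31 in the wild type without passing (adjusted p = 0.134).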

How the data were processed

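Poly(A) RNA of 12 yeast cultures was sequenced after hot phenol extraction, per the labels' protocols. The authors deposited raw read counts per gene in 1 table, and all 12 columns were matched to a sample. STAR 2.5.1a and Subread with featureCounts 1.4.6-p5 are named without a role, per the submitters' processing notes. No source used here gives the genome build, the strand setting or how multi-mapping reads were counted, so reads of paralogs, antisense or overlapping genes can stand in a relative's count.

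The table held 7230 lines for 7109 identifiers, and 97 identifiers that stood on several lines with equal counts were used once. RefSeq R64 gave symbols for 6042 identifiers, coding lengths and neighbours. Totals were 36472686 to 53638964 counts. Replicates differed by a chi-square of at least 65 per degree of freedom, beyond counting noise.

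TMM-scaled counts of all 12 libraries were tested with edgeR 4.0.16 (quasi-likelihood, robust, filterByExpr, no block) in R 4.3.3, over 6463 genes, at a Benjamini-Hochberg adjusted p under 0.05. SE is approximate, the log2 change divided by the square root of F. Libraries serve in several of the 5 comparisons, which are therefore not independent.

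Members and lists were chosen with earlier results of these data known. Named were the members, up to 3 genes per list and comparison by size of change among those that passed, the 3 genes most correlated with each member (mean log2 CPM of at least 4), label checks and neighbours. Single high libraries were pointed out after seeing their values. Alternatives were median-ratio (RLE) and library-size scaling, DESeq2 1.42.0, limma-voom (limma 3.58.1), other filters, a replicate block, only the libraries compared, the paralogs summed, and each library left out. Same-numbered libraries deviated together in WT_MMS and WT, with correlations of 0.12 to 0.35 in all 3 pairs. Of the 15 other same-numbered pairs 1 was over 0.1 (-0.50 to 0.13). No correlation was computed between libraries with unlike numbers, so these values do not show that the numbers mark a pairing. For MMS in the wild type the numbers were tried as a pairing, a choice made from the data and not from the labels. The fit was tested on simulated data in which few genes changed, equally up and down, unlike the MMS comparisons here. That test does not bear on the choice of scaling. Promoter and protein sequences were not analysed here.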

Additional observations from a re-analysis of the deposited data

Results flagged for a closer look

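For 3 members the MMS effects of the strains differed by the test of the difference itself, with the deletion strain's effect minus the wild type's on the log2 scale. By the same test, 18.6% of all 6463 genes tested had a higher and 21.5% a lower effect in the deletion strain. ALD3 rose more in the deletion strain, by 1.93 ± 0.31 (SE, edgeR adjusted p = 0.00054). ALD6 fell more in it, at -1.57 ± 0.16 (adjusted p = 1.46e-05). ALD2 rose more in it by 0.45 ± 0.16 (adjusted p = 0.035), a call that was lost in 8 of the 12 fits that left out 1 library. All 3 held their direction in each of 19 alternatives.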

How the results depend on the processing

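Of the alternative values of member changes, 492 kept their direction and side of the threshold, 17 lost and 6 gained a call, and 10 turned direction, all 10 in changes that had not passed. Library-size scaling moved the median of all genes to 0.61 for MMS in the deletion strain, 0.33 for MMS in the wild type, 0.37 between treated strains, 0.11 between untreated strains and 0.23 for the difference, from 0.06 or less. Higher and lower calls were then 3707 and 1275, in place of 2535 and 2339, for MMS in the deletion strain, and 3018 and 1334, in place of 2302 and 2213, in the wild type. They were 3143 and 984, in place of 2070 and 1929, between treated strains, 440 and 75, in place of 339 and 215, between untreated strains, and 1491 and 748, in place of 1200 and 1387, for the difference. ALD2 between untreated strains then passed at 0.32 (adjusted p = 0.0287) and ALD5 between treated strains at 0.75 (adjusted p = 0.0215). With only the libraries compared, ALD5 passed there at 0.40 (adjusted p = 0.0032). DESeq2 called 419 genes lower between untreated strains. Under RLE scaling and DESeq2 the difference of MMS effects was 0.41 for ALD2 (adjusted p = 0.0636 and 0.0533), which no longer passed, and -0.034 for ALD4. Without division by length, the cytosolic share in hel2 was 78.5% and the ratio 3.64. The causes were not tested.

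With 1 library left out, 209 to 606 genes were higher and 75 to 557 lower between untreated strains, most of both without WT_MMS_1. There ALD4 ranged from 0.74 to 0.92, ALD6 from 0.37 to 0.52 and ALD5 from -0.51 to 0.22. ALD5 ranged from -0.015 to 0.71 for MMS in the wild type and from 0.38 to 0.43 between treated strains. The difference of MMS effects ranged from 0.34 to 0.59 for ALD2, -0.18 to 0.33 for ALD4 and 0.19 to 0.91 for ALD5. Libraries that remained in a group of 2 shared the spread of the others.

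With the wild type libraries alone, paired by number (chosen after seeing the data), 2254 genes rose and 2220 fell with MMS, and 0 of 5 members and 3 of 42 list genes changed their call (HFD1 and SFA1 lost it, PDC6 gained it at -0.34, adjusted p = 0.0357). By the labels, the libraries share only a number in every comparison. With a replicate block over all libraries 135 genes were lower between untreated strains, and ALD6 there was 0.45 (adjusted p = 0.0569). No other call of a member changed with the block.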
